A study of Caenorhabditis elegans with 2 samples.

Results

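The genes described here encode the AAA ATPase CDC-48 of Caenorhabditis elegans and its best known partners in the handling of ubiquitinated proteins. They are cdc-48.1, cdc-48.2, ufd-1, npl-4.1, npl-4.2 and ufd-2, which is 6 of 19973 protein-coding genes on the 6 chromosomes of the Ensembl annotation of WBcel235. All 6 names were matched. A peak was counted for a gene when its summit fell in the promoter window, which runs from 1000 bp before the annotated start to 200 bp after it, or inside the gene body. The genes were chosen by their function and by the measured peak signal, because the strongest peak of the experiment stands beside cdc-48.1. Which members have a peak, and how strong it is, is therefore a description, and no test was made of it.

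The data are peak lists from chromatin immunoprecipitation followed by sequencing (ChIP-seq) of NHR-11, a nuclear hormone receptor. There was 1 group with 2 biological replicates. Each was whole L4 larvae, males and females pooled, of strain OP305 (unc-119(ed3) III; wgIs305), which carries an inserted transgene for eGFP-tagged NHR-11. The labels name nhr-11 as the antibody's target and describe the protein as an eGFP fusion, but they do not name the promoter of the transgene. Untagged animals were not analysed here, and all animals carried the unc-119(ed3) allele. The authors' lists in build ce11 held 2719 thresholded peaks, 13558 pooled peaks, 19074 peaks and background regions for replicate 1 and 22137 for replicate 2. The signal of a peak is the authors' own, on a scale that is not stated, so signals and their ratios are compared only within a list and are not read as fold changes in binding. No read counts are given, so the depth of the libraries is unknown. The 2719 thresholded peaks are the strongest 2719 of the pooled list: the weakest of them had a signal of 54.8905, and the next pooled peak had 54.8693.

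CDC-48, called p97 or VCP in mammals, is a ring-shaped ATPase that pulls ubiquitinated proteins out of membranes, complexes and chromatin so that the proteasome can degrade them. Its substrates are brought to it by adaptors, of which the heterodimer of UFD-1 and NPL-4 is the best studied. UFD-2 is an E4 enzyme that lengthens ubiquitin chains on substrates handed over by CDC-48. The machine is known above all from the degradation of misfolded proteins of the endoplasmic reticulum (ERAD) and, in worm embryos, from DNA replication.

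The gene starts lay on II for 5 of the members and on IV for ufd-1. The sequences below show the DNA under the peaks of the members that have one, and the DNA before the starts of the members that have none. All are read from the RefSeq WBcel235 genome, which has the sequence of ce11, on the strand of the gene and from 5′ to 3′. Capitals mark matches to any of 10 short motifs searched on both strands.

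The strongest peak of the experiment, upstream of cdc-48.1, is shown over its whole interval, chrII:10563435-10563707 (minus strand). Its summit is the last base of the second block of capitals.
cdc-48.1: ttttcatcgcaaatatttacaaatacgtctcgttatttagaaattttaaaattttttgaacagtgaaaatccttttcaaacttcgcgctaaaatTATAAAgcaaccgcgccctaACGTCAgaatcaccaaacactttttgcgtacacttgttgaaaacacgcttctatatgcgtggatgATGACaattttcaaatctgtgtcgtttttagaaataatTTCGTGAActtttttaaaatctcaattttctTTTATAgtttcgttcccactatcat

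The 101 bases centred on the pooled summits of ufd-2, chrII:8062380-8062480 (plus strand), and cdc-48.2, chrII:8137501-8137601 (plus strand), are shown for comparison with it.
ufd-2: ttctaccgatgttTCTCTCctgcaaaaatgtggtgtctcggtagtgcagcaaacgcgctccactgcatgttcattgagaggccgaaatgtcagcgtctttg
cdc-48.2: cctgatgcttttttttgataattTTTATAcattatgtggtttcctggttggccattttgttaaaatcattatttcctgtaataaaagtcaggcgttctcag

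The 85 bases between ufd-1 and the gene before it, chrIV:12330891-12330975 (minus strand), are all the intergenic sequence that ufd-1 has upstream. The 100 bases before the starts of npl-4.1, chrII:5631251-5631350, and npl-4.2, chrII:5622789-5622888 (both plus strand), were the same base for base and are printed once.
ufd-1: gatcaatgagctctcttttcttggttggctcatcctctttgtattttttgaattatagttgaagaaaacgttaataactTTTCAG
npl-4.1 and npl-4.2: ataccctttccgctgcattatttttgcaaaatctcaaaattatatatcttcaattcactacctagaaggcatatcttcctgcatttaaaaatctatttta

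Thresholded peaks stood at the gene of the ATPase copy cdc-48.1 and at that of the E4 enzyme. The other ATPase copy, cdc-48.2, had a weaker peak outside the thresholded list, and the genes of the UFD-1 and NPL-4 adaptor had none in any list. Of the 6 members, 2 (cdc-48.1 and ufd-2) had a thresholded summit in the promoter window, where 8.28% of all protein-coding genes had one. With cdc-48.2, 3 of 6 had a pooled summit there (25.3% of all genes), and the same 3 had a summit of both replicates there (21.3% of all genes). The gene bodies added no member in any list. Counting the window and the body together, 2 of 6 members had a thresholded summit (10.6% of all genes) and 3 of 6 a pooled summit (36.3%). The count was also 3 of 6 with replicate 1 (47.1% of all genes) and with replicate 2 (50.8%). The other 3 members, ufd-1, npl-4.1 and npl-4.2, had no summit of any list, as had 37.5% of all genes. With 6 genes chosen for 1 peak, these counts give no excess or lack of peaks for the group.

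**Figure D1:**
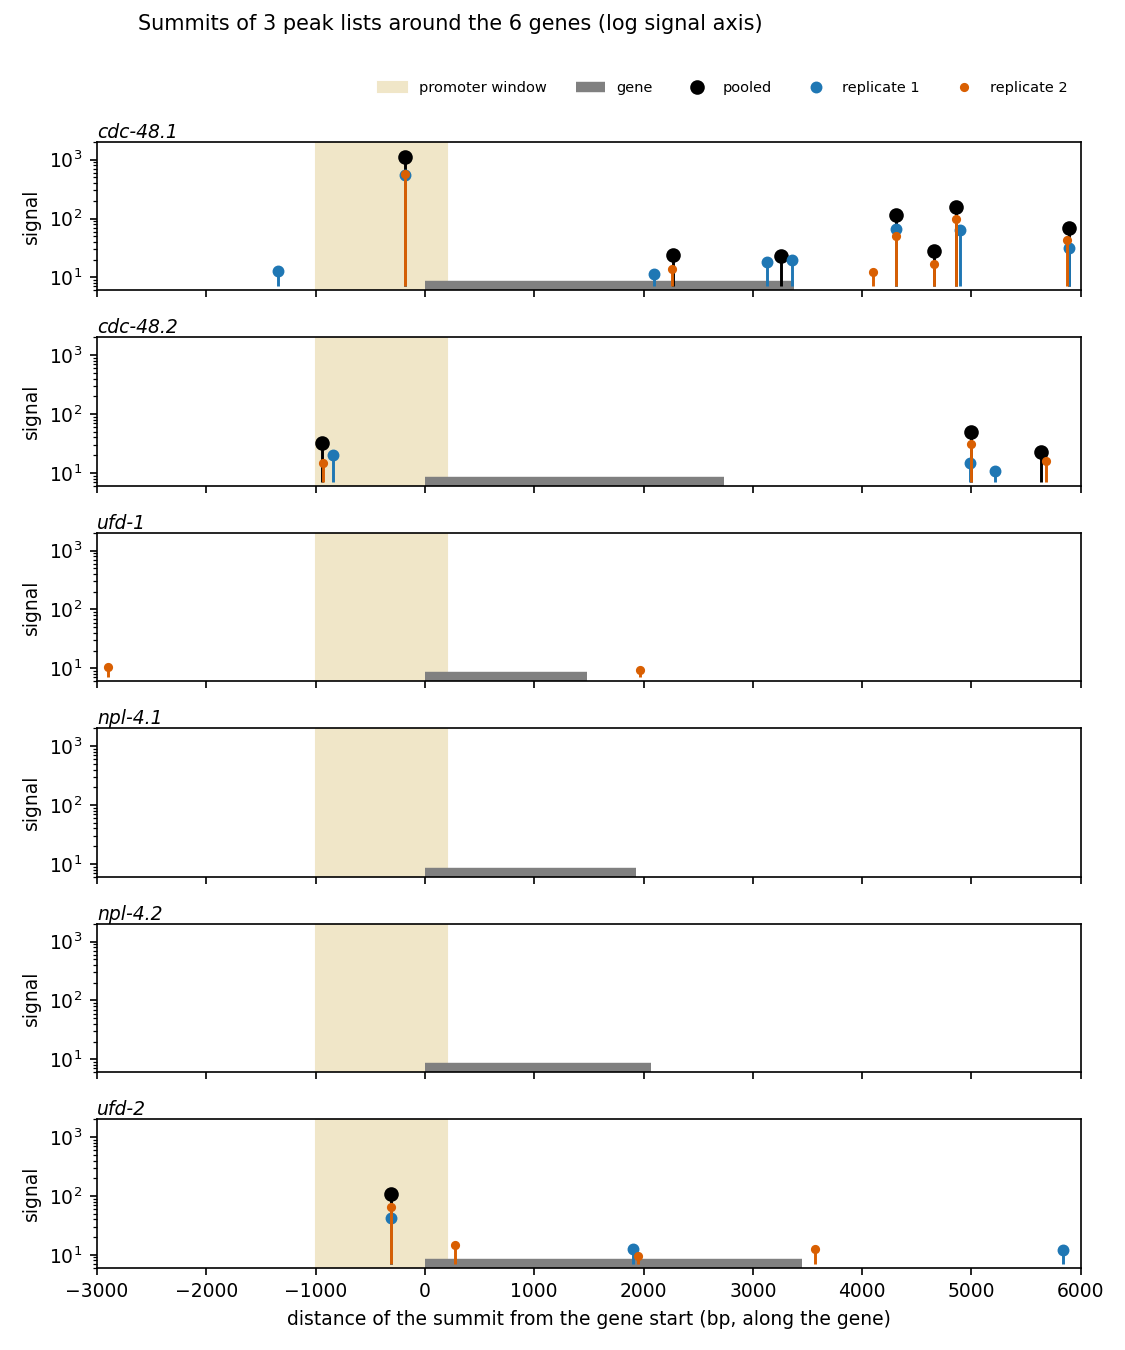
Summits of the pooled list and of both replicates' own lists around the 6 genes, by distance from the gene start in bp (horizontal axis) and by signal on a log axis (vertical axis, each list on its own scale). The shaded band is the promoter window and the grey bar the gene. Summits stand in the window of cdc-48.1, ufd-2 and, at its outer edge, cdc-48.2, while npl-4.1 and npl-4.2 have none anywhere in the 3000 bp before and 6000 bp after their starts.

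The gene cdc-48.1 (WBGene00007352, II, 10560036 to 10563407, minus strand) encodes an ATPase of 809 residues. Its promoter summit had a signal of 539 in replicate 1, 571 in replicate 2 and 1108 in the pooled and thresholded lists. It ranked first in each of the 4 lists. The runner-up had a signal of 356 in replicate 1, 386 in replicate 2 and 728 in the pooled list, so the ratio of the cdc-48.1 signal to it was 1.52, 1.48 and 1.52 in the same order. Replicate 1 and replicate 2 had different runners-up, and neither was in a promoter window of a member. In the pooled list, the ratio of its signal to the median signal of 30.6 was 36.1.

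The position of this peak was as closely shared as its rank. The summits of replicate 1 and replicate 2 lay 180 and 181 bp upstream of the start, 1 bp apart. Among the 2700 thresholded peaks matched in both replicates the median gap was 23 bp, and 5.96% had a gap of at most 1 bp. The peak was 273 bp wide, against 376 bp for most thresholded peaks. Narrow intervals of this kind were few, 64 of 2719, and 44 of them were among the 64 strongest peaks. The start codon lies 17 bp inside the annotated start. The nearest protein-coding gene upstream, C06A1.6, ends 704 bp from the start of cdc-48.1 and is on the same strand. No other protein-coding gene had this summit in its promoter window.

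Other summits inside cdc-48.1 were weak. The pooled list held 1 in a coding exon (II, 10561137, signal 24.0, rank 10856) and 1 in the 3′ UTR (II, 10560149, signal 23.1, rank 11776). Their −log10 q values were 0.0835 and 0.0537, against 3.52 for the promoter peak. Replicate 1 had 3 summits in the gene, with signals of 11.4 to 20.0, and replicate 2 had 1, with a signal of 13.9. The snoRNA genes C06A1.8 and C06A1.9 lie in introns of cdc-48.1, and no summit fell in an intron.

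Beyond the 3′ end of cdc-48.1 stood a row of thresholded peaks that the window and the gene do not include. Their summits lay 939, 1489, 2517 and 4235 bp past the gene's end, with signals of 117, 160, 68.6 and 142. Among protein-coding genes, the nearest start for each was that of mnk-1, a kinase gene, 757 to 4053 bp away. Starts of other kinds of gene, such as the snoRNA genes inside cdc-48.1, were not included. The cdc-48.1 summit had 6 other thresholded summits within 10000 bp, of which 1 was on its upstream side. The median over all thresholded peaks was 1, and 2.5% of them had 6 or more.

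The paralog cdc-48.2 (WBGene00008053, II, 8138496 to 8141230, plus strand) encodes a protein of 810 residues that is 88.1% identical to that of cdc-48.1. The 250 bp upstream of the starts of these paralogs aligned with 47.9% identity, against 50.4% for ufd-1 and ufd-2, whose proteins aligned with only 11.5% identity. The pooled list had a single summit in the window of cdc-48.2, 945 bp upstream, with a signal of 32.2 (rank 6200 of 13558, −log10 q 0.479). The summit is not in the thresholded list. Replicate 1 had its summit 843 bp upstream (signal 20.2, rank 4695) and replicate 2 had one 934 bp upstream (signal 14.5, rank 8857). The replicates' summits were 91 bp apart, a wider gap than the upper quartile of 50 bp over thresholded peaks.

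The weak cdc-48.2 summit cannot be given to that gene alone. The gene ctns-1, which encodes a homologue of the lysosomal cystine transporter cystinosin, starts head to head with it across 1577 bp. The pooled summit lay 633 bp upstream of ctns-1, nearer than the 945 bp to cdc-48.2, and it was in the promoter window of both. The nearest thresholded summit to the start of cdc-48.2 was 6936 bp away. The 2 ATPase genes thus differ in these lists by the first rank of 13558 against a place in the middle of the list.

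The E4 enzyme gene ufd-2 (WBGene00006734, II, 8062741 to 8066193, plus strand) had the other thresholded peak. Its summit had a signal of 42.6 in replicate 1 (rank 1310), 64.8 in replicate 2 (rank 638) and 109 in the pooled list (rank 830). Replicate 2 placed it higher than replicate 1. The ratio of these ranks, 1.04 on the log2 scale, was above the median of 0.584 for thresholded peaks, and 24.1% of those had a ratio as large. The summits of both replicates were at the same base, 310 bp upstream of the start. The peak was stronger than the median gene with a thresholded promoter peak (109 against 90.2), and 37.9% of the 1654 such genes had one as strong or stronger. No other protein-coding gene shared the summit, and T05H10.8, the protein-coding gene before ufd-2, ends 987 bp upstream.

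Inside ufd-2 the pooled list had no summit. Replicate 1 had a weak one in a coding exon (II, 8064645, signal 12.7, rank 12868). Replicate 2 had 2 in coding exons (II, 8063012 with a signal of 14.7, and 8064691 with 9.49).

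**Figure D2:**
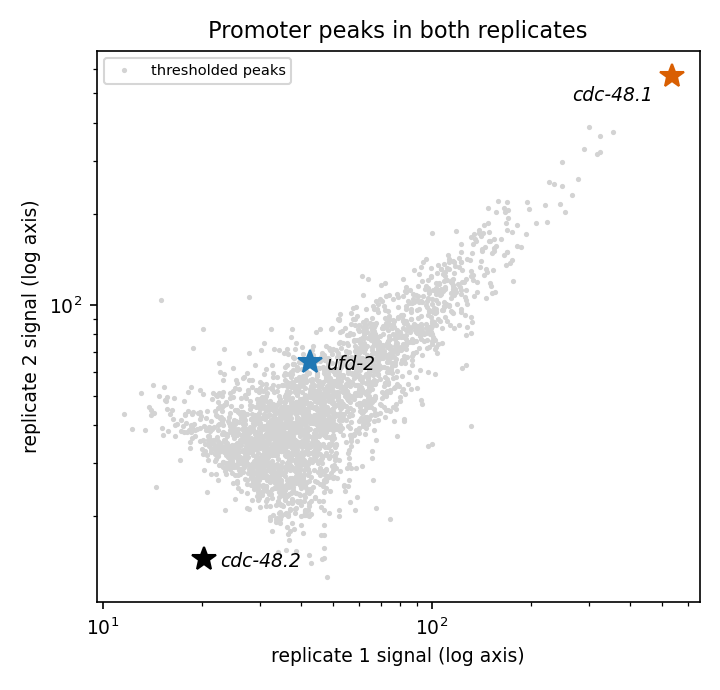
Signal of the promoter peak in replicate 2 (vertical, log axis) against replicate 1 (horizontal, log axis) for cdc-48.1, ufd-2 and cdc-48.2 (stars) and for the 2700 thresholded peaks matched in both replicates (grey points). The cdc-48.1 peak, at 539 and 571, stands beyond all others, ufd-2 lies among the thresholded peaks, and cdc-48.2, at 20.2 and 14.5, lies at the weak end of both axes and is not a thresholded peak.

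The adaptor gene ufd-1 (WBGene00006733, IV, 12329408 to 12330890, minus strand) had no summit in its promoter window or body in any list. The nearest pooled summit was 4180 bp from its start, with a signal of 29.2, and the nearest thresholded one was 41162 bp away. Over all protein-coding genes the median distances were 2878 and 16148 bp, and 40.3% and 22.1% of genes were as far away or farther. The closest summit in any list was 490 bp past the end of the gene, in replicate 2 only (signal 9.34, rank 21245 of 22137). The start of ufd-1 follows the end of F19B6.1, on the same strand, after 85 bp. The rest of the 1000 bp before the start of ufd-1 thus lies in or beyond F19B6.1. The sequence printed above for ufd-1 ends, at the base before the annotated start, in TTTCAG, the form that worm splice acceptors usually take. That motif was in 51.7% of promoters of all protein-coding genes. None of the 31-base words of the ufd-1 promoter window was found elsewhere in the genome.

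No list had a summit at either NPL-4 gene, and for these genes absence of binding and absence of uniquely placed reads cannot be told apart. The genes npl-4.1 (WBGene00019120, II, 5631351 to 5633284) and npl-4.2 (WBGene00019121, II, 5622889 to 5624959) are copies on the same strand with starts 8462 bp apart. Their proteins, of 529 residues each, were 99.1% identical and their coding sequences 99.5%. The genome was identical without a break from 1325 bp upstream of the starts to 14 bp inside them. In each promoter window, 97.4% of 31-base words were found more than once in the genome, as were 86.7% and 84.7% of those in the bodies of npl-4.1 and npl-4.2. A read of 31 bases that matches such a word has no unique place, while the remaining words of the windows and bodies occur once. Neither the read length nor the aligner's treatment of such reads is stated in the labels or files.

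No gene with a promoter window of this kind had a summit in that window. Windows with at least 90% repeated words belonged to 257 protein-coding genes. A summit of any list in the window was found at 0 of 257, against 43.1% of all 19973 genes. In the pooled list this was 0 of 257 against 25.3%, and among the 12230 genes without a repeated word 30.9% had one. Of the thresholded peaks, 91.7% held no repeated word and 1 of 2719 held 90% or more. This comparison over all genes was chosen after the absence of peaks at the NPL-4 genes was seen. Summits in the gene bodies were not counted in it.

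**Figure D3:**
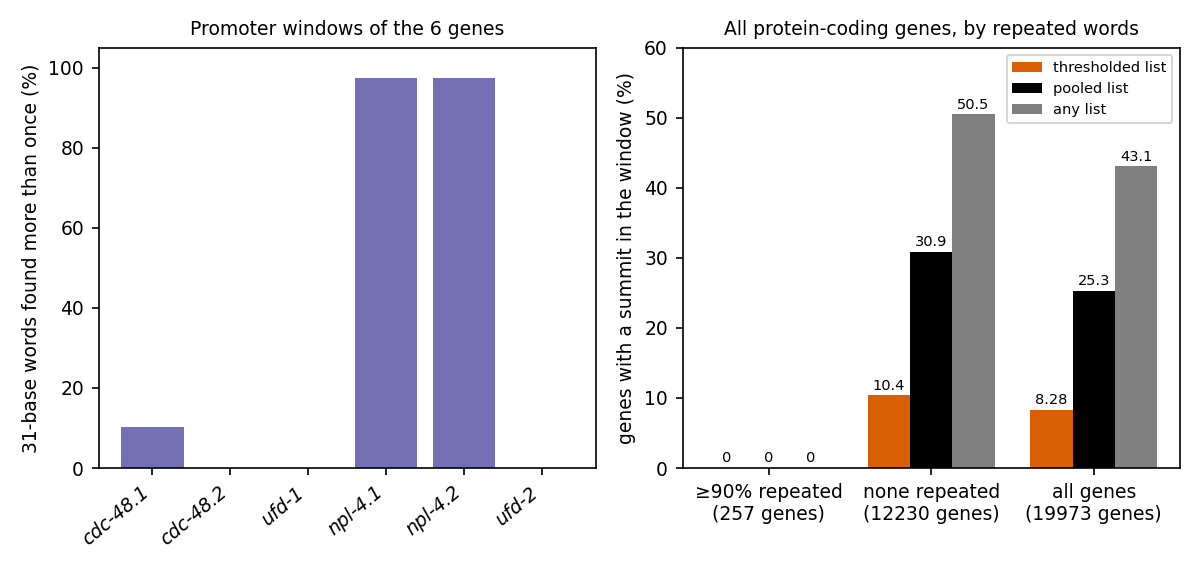
Left, the percentage of 31-base words in each member's promoter window that occur more than once in the genome (vertical axis). Right, the percentage of protein-coding genes with a summit in the promoter window for genes with at least 90% repeated words (257 genes), with none (12230) and for all 19973, in the thresholded list, the pooled list and any list. The NPL-4 genes stand at 97.4%, and genes with at least 90% repeated words had no summit of any list in the window.

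Repeats do not cover all the ground around the NPL-4 genes. No list had a summit between 5616300 and 5641767 on II, a stretch of 25467 bp in which 29.0% of words were repeated. Of 52213 intervals between neighbouring summits of all lists, 121 were as long or longer, and the median was 651 bp. Among the other members, no word was repeated in the promoter windows of cdc-48.2, ufd-1 and ufd-2. That of cdc-48.1 had 10.3% repeated words, all from 797 bp upstream outwards, and its peak held none.

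The DNA under the 3 member peaks varied in base composition and in the motifs it held. The window of 101 bases at the cdc-48.1 summit had a GC content of 39.6%, below the lower quartile of 41.6% over thresholded summits, whose median was 46.5%. The ufd-2 window had 49.5% and the cdc-48.2 window 31.7%. At cdc-48.1 the motif TGACGT, the core of a cyclic AMP response element, was found on the opposite strand as the 6 bases that end at the summit. It was in 6.03% of all thresholded summit windows and in 10.3% of promoters of all protein-coding genes. Centred within 3 bp of the summit, a count chosen after this match was seen, it stood at 13 of 2719 thresholded summits (0.478%).

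TATAAA began 25 bases before the same summit, and was in 4.16% of thresholded windows and 37.9% of promoters. Of the other motifs, GTCAT, the core of SKN-1 sites (16.1% of thresholded windows), and TTCNNGAA, the core of heat shock elements (4.01%), were found elsewhere in the cdc-48.1 peak and outside its central 101 bases. The ufd-2 window held GAGAGA (30.4% of thresholded windows) and the cdc-48.2 window held TATAAA. None of the 3 windows held AGGTCA, the half-site that many nuclear receptors bind, which was in 2.65% of thresholded windows. None of the 6 members' promoters, taken from 250 bp before to 50 bp after the start, held it either, against 8.27% of all promoters. Absence of a match says only that these letters are not in these windows, and CACGTG (5.99% of thresholded windows), GCGCGC (5.11%), TTTCAG (6.44%) and ATTGG (16.0%) were likewise in none of the 3.

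The other adaptors of CDC-48 in a list of 11 ranged from strong peaks to none. Of the 11, 4 had a thresholded promoter summit, against 8.28% of all protein-coding genes, and 4 had a pooled one, against 25.3% of all genes. The strongest was at ubxn-3, a UBX-domain adaptor used in DNA replication (II, summit 221437, 770 bp upstream), with signals of 85.9 in replicate 1, 83.1 in replicate 2 and 173 in the pooled list. Next came ufd-3, the homologue of yeast Ufd3 (II, 9940612, 141 bp upstream), with 52.5, 81.1 and 140 in the same order. The UBX-domain genes ubxn-1 and ubxn-2 had pooled signals of 73.8 and 65.7. The summit of ubxn-1 lay 215 bp upstream of it but nearer to tipn-1, so 3 of the 4 had the nearest start. The genes atx-3 (a deubiquitinase), vms-1, png-1 (peptide N-glycanase) and chn-1, the homologue of the ubiquitin ligase CHIP that works with UFD-2 in the worm, had no promoter summit in any list. Of all protein-coding genes, 43.1% had a promoter summit in at least 1 list, so a lack of one was common. None of the 11 had a window with 90% repeated words.

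In a list of 20 genes for ERAD, the unfolded protein response and ubiquitin supply, 8 had a thresholded promoter summit (8.28% of all genes) and 15 a pooled one (25.3%). The strongest stood at xbp-1, the transcription factor of the unfolded protein response (III, 4193807, 2 bp upstream), with signals of 113 in replicate 1, 142 in replicate 2 and 250 in the pooled list (rank 100). The ubiquilin gene ubql-1 had 117, 127 and 243 (rank 107). The ligase gene marc-6, a homologue of yeast Doa10, had 78.1, 79.1 and 161. Its partners in yeast have worm homologues in ubc-6 and ubc-7, whose pooled signals were 113 and 70.4. The gene ubq-2 encodes ubiquitin fused to a ribosomal protein, and its summit (signal 155) was nearer to frg-1. The stress sensors atf-6 and pek-1 had 107 and 67.0, while ire-1 had 42.6, below the threshold. The genes for the HRD1 ligase and its partner, sel-11 and sel-1, had no promoter summit in any list, and neither had ddi-1. These genes without a summit were 3 of the 20. A promoter summit in at least 1 list was found at 43.1% of all protein-coding genes, so most genes lacked one.

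Among 8 related AAA ATPases, 2 had a thresholded promoter summit (8.28% of all genes). These were nsf-1, which works in membrane fusion (signal 121), and figl-1, a fidgetin-like gene (signal 60.4) whose summit was nearer to mcm-7. The closest relative in name, cdc-48.3, had none in any list, and neither had mac-1. The highest pooled signal in the 3 lists was 250, at xbp-1. That it is below the 1108 at cdc-48.1 follows from the choice of the members by the strongest peak. These lists were chosen with earlier results known and hold few genes, so their shares are not tested against the rest.

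**Figure D4:**
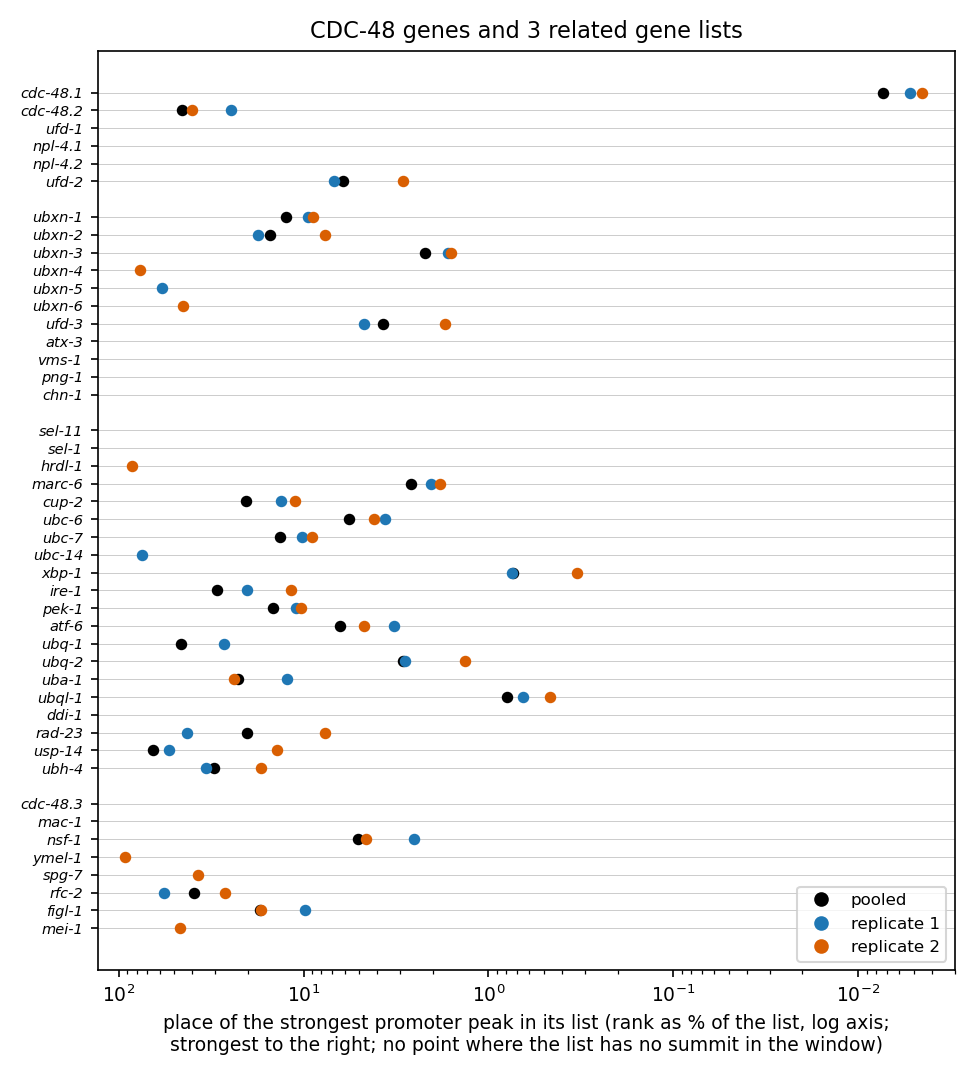
Place of each gene's strongest promoter peak in the pooled list and in both replicates' own lists, as rank in percent of the list on a log axis with the strongest to the right, for the 6 members (top), 11 other cofactors, 20 ERAD and ubiquitin genes and 8 AAA ATPases. The cdc-48.1 points stand alone at the right, and xbp-1 and ubql-1 come next.

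**Figure D5:**
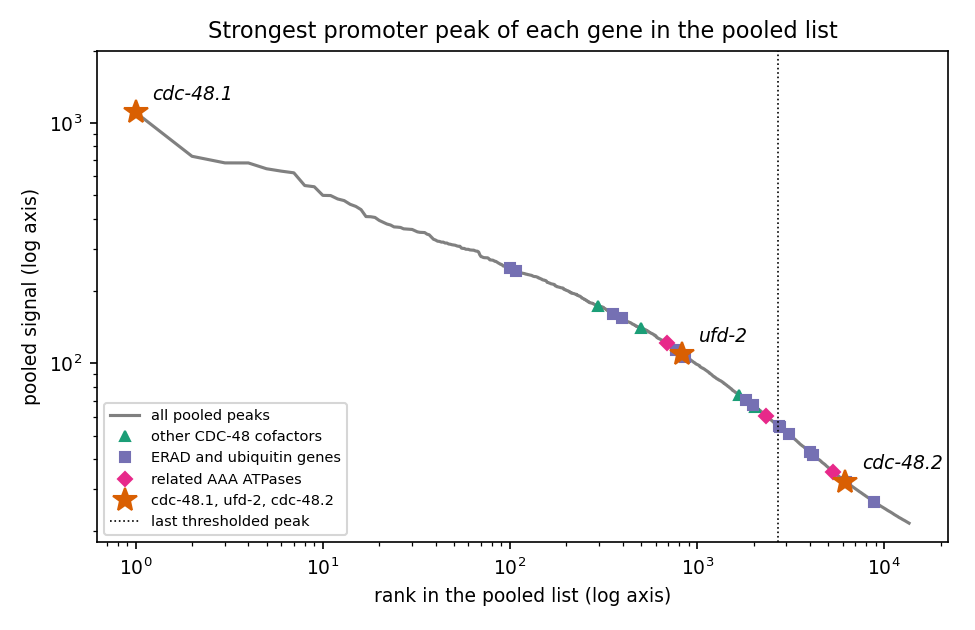
Pooled signal (vertical, log axis) against rank (horizontal, log axis) for all 13558 pooled peaks, with the strongest promoter peak of the members (stars) and of the 3 lists. The dotted line marks the last of 2719 thresholded peaks. Of the members, cdc-48.1 is at rank 1 and ufd-2 at 830, inside the threshold, and cdc-48.2 is at 6200, outside it.

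The genes most like the members in rank were found by the distance between log10 ranks over the pooled list and both replicates' lists, among 3933 genes with a promoter summit in all 3. For cdc-48.1 these were rpl-3, a ribosomal protein gene (ranks 3, 3 and 4, distance 0.904), and K01G5.10 and tasp-1, which share a peak (ranks 5, 4 and 6, distance 1.21). That the peaks of these neighbours are weaker in each list follows from the first rank of cdc-48.1. For ufd-2 they were alh-8, an aldehyde dehydrogenase gene (ranks 832, 1219 and 619, distance 0.0339), and C01G10.7 (915, 1335 and 652, distance 0.0441). For cdc-48.2 they were ctns-1, by the shared peak, and dog-1, a helicase gene (5968, 4768 and 8573, distance 0.0228).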

How the data were processed

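Per the texts deposited with the files, the authors called each replicate's peaks and background regions on its alignments with a further file used for control normalisation. The pooled list was called on both alignments, and the thresholded list came from these 3 lists by irreproducible discovery rate (IDR). The sources used here do not give the aligner, caller, versions, read length or IDR cut-off. Each peak has the authors' signal and −log10 q value as deposited.

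Here, summits (interval start plus deposited offset, counted from 1) of the ce11 lists were assigned to Ensembl release 115 genes, and the ce10 lists served as an alternative without conversion. Scripts used Python 3.11.15, pandas 2.3.3 and Biopython 1.88. Promoter window assignment, motif search, the members' repeated-word count and the identity calculation were tested on simulated data. Replicate matching and the repeated-word count over all genes were not. Ranks are by signal. A thresholded peak was matched with the strongest summit of a replicate inside its interval. Repeats were counted as words of 31 bases found more than once in the genome on either strand. Proteins were translated from the annotated coding sequence, the longest per gene, and sequences aligned globally. The 10 motifs were the nuclear receptor half-site AGGTCA, the repeat GAGAGA, the E-box CACGTG, the response element core TGACGT, the SKN-1 core GTCAT, the heat shock core TTCNNGAA, the TATA form TATAAA, the repeat GCGCGC, the splice acceptor form TTTCAG and the inverted CCAAT core ATTGG. They were searched on both strands within 50 bp of summits and in 300-base promoters. TGACGT and GTCAT can share bases.

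The members and lists were chosen with earlier results of these data known. Named genes were the members, genes sharing their summits, list genes with a thresholded promoter summit and the 3 (cdc-48.1) or 2 genes most alike in rank. List genes without such a summit, the genes beside the members and those nearest to a list gene's summit were named after their values were seen. Replicates were given as separate biological samples, and intervals or tests over 2 replicates were not computed. No columns of other series were present.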

Additional observations from a re-analysis of the deposited data

How the results depend on the processing

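Of 45 alternatives, 44 left the result within 1.5 times its main value. They covered the promoter window (500 bp upstream to 100 bp downstream, or 2000 and 500 bp), transcript starts, the middle of the peak, 1 bp of overlap, nearest starts only, stronger peaks only, a single replicate's list and ce10. The exception was the count of other CDC-48 cofactors, which was 2 in place of 4 among the strongest 1359 thresholded peaks (4.59% of all genes). The members with a thresholded promoter summit were cdc-48.1 and ufd-2 in each setting whose genes were listed. The narrower window, and assignment to the nearest start alone, each lost the summit of cdc-48.2. In the pooled list each left 2 of 6 members in place of 3 (18.7% and 20.6% of all genes). The narrower window also lost the thresholded summits of ubxn-3, marc-6 and ubql-1. It left 3 other cofactors in place of 4, and 6 ERAD and ubiquitin genes in place of 8 (6.43% of all genes). With the same number of strongest peaks of a single replicate, ERAD and ubiquitin genes numbered 10 to 11 in place of 8, and other cofactors 3 to 4. Over all protein-coding genes the share was 8.04% with the list of replicate 1 and 8.26% with that of replicate 2. In ce10 the strongest peak was also on II, with a signal of 1108. Some of the 44 alternatives could hardly move their result. The share of pooled peaks weaker than that of cdc-48.1, 99.9926%, was at the top of its scale, and the ce10 setting took the strongest peak. A single replicate's list in place of both could not lower the count of members with a summit of both replicates. The change from 3 members to 2 was counted as within 1.5 times.

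No paired analysis was possible because the study has a single group. The unknown depth and the repeated sequence at the NPL-4 genes limit what an absent peak shows.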
